A study of Mus musculus with 6 samples.

Results

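The genes of glucose uptake and glycolysis were examined in long-term haematopoietic stem cells (LT-HSC) of Irf8 knockout and wildtype mice. The set holds Slc2a1, Hk1, Hk2, Pfkl, Pfkp, Aldoa, Gapdh, Pgk1, Pkm and Ldha, 10 genes chosen by name for their place in the pathway, each with all its probe sets that name 1 gene. Of the 10 genes 9 were measured in this way, through 22 of the 34945 single-gene probe sets of the table and as 9 of its 18193 genes. Gapdh, glyceraldehyde-3-phosphate dehydrogenase, had no single-gene probe set, since its 3 probe sets also name other genes. The cells were sorted from mouse bone marrow as lineage-negative, Sca-1+, c-kit+, CD48- and CD150+ cells, and their RNA was hybridised to Affymetrix expression arrays after amplification. There were 3 arrays from knockout mice (Irf8-/-), which lack the interferon regulatory factor IRF8, and 3 from wildtype mice (Irf8+/+). All 6 samples are labelled as biological replicates at 3 weeks without treatment. The sources used here do not give the strain, the sex, the design of the knockout allele or whether animals were pooled.

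Glycolysis breaks glucose down to pyruvate in the cytosol, and lactate dehydrogenase can then turn pyruvate into lactate. Glucose enters the cell through GLUT transporters, hexokinase traps it as glucose 6-phosphate, phosphofructokinase makes the committed step, and the enzymes from aldolase onwards split the sugar and recover ATP. Quiescent LT-HSC are known to rely on glycolysis more than on mitochondrial respiration, and the hypoxia-inducible factor HIF-1 is known to drive genes of this pathway and of the pyruvate dehydrogenase kinases, which hold pyruvate back from mitochondria.

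Values are log2 expression, 1 per probe set and array, and a difference is knockout minus wildtype on that scale, with its standard error (SE) from limma at n = 3 arrays a group. Array medians over all probe sets lay between 4.85 and 4.96, and knockout replicate 3 resembled the other arrays least (mean correlation of 0.845 across genes). Irf8 itself read 4.91, 6.39 and 6.50 in the knockout arrays, against 4.98, 6.43 and 5.16 in the wildtype arrays, near the median gene level of 5.81; no source used here places its probes inside or outside the deletion, so it does not check the labels. Of 10 listed stem cell markers 8 were measured, with 4 differences above 0 and 4 below. In their mean over the 6 arrays all 8 lay above the median gene level. The brightest, Meis1, read 10.91 in knockout and 10.57 in wildtype, and Hlf read 10.69 in knockout and 10.54 in wildtype. Slamf1 and Fgd5, named after their values were seen, read 4.71 and 4.94 in knockout replicate 3, under the median gene level. Procr, named after its value was seen, differed by -0.75 without overlap (adjusted p = 0.887 in limma). The neutrophil and granule list, 13 of 16 genes measured, had a mean log2 level of 8.65, 8.31 and 10.90 in the knockout arrays, against 7.46, 7.67 and 6.70 in the wildtype arrays. Of its differences 12 lay above 0 and 1 below, and 4 genes had no overlap, all with higher knockout values (6.67% of all genes). The brightest genes of this list, S100a9 and S100a8, differed by 2.01 (SE 0.34) and 2.12 (SE 0.40), with adjusted p of 0.74 and 0.88 in limma. In RNA from many cells, fewer cells of a type and less RNA per cell cannot be told apart.

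Upstream sequences of 3 members are shown because HIF-1 binds a short core, ACGTG or GCGTG, before many glycolysis genes. Slc2a1 and Pfkp had the lowest differences among the members, and Ldha is a member with a small one. The 250 bases before the annotated start (RefSeq, GRCm38.p6) are given on the gene's strand, and capitals mark the core on either strand; cores that overlap make 1 run.
Slc2a1 (chr4:119108495-119108744, + strand): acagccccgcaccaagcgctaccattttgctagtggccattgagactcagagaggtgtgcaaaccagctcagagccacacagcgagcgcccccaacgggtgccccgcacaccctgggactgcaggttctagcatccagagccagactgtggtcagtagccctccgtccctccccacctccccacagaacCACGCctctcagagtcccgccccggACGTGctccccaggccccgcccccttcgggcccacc
Pfkp (chr13:6648772-6649021, - strand): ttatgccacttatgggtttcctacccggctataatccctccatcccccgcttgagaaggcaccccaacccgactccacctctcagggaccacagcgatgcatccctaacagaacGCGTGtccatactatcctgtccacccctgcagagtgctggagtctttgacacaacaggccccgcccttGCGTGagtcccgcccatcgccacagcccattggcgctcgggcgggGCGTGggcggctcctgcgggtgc
Ldha (chr7:46845554-46845803, + strand): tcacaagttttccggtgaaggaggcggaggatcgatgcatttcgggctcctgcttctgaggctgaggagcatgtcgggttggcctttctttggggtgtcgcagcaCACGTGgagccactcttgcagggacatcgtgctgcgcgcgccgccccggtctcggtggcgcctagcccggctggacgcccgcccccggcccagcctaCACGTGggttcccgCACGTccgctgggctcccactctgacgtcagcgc
Slc2a1 had 2 runs, Pfkp had 3 and Ldha had 3 before the start shown, the first of its 2 annotated starts, and 1 before the other. A core lay before 12 of the 15 annotated starts of the 10 genes (80.0%), against 12679 of all 32851 starts (38.6%). The sequences before Aldoa starts 1 and 2 overlap and hold the same core, so the 15 are not all separate. The core contains a CG pair, and the median number of CG pairs was 16 before member starts and 6 before all starts; among starts with at least 16 CG pairs 68.7% held a core. A match describes these letters and is not a binding site.

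No gene of the set passed the test between knockout and wildtype. In limma with Benjamini-Hochberg adjustment 0 of 9 members passed an adjusted p of 0.05, where 0% of all 18193 genes did, and 0 of 9 had an unadjusted p under 0.05, where 2.40% of all genes had one with higher and 2.44% with lower knockout values. Adjusted p ran from 0.887 to 0.968. In the fit on probe sets 0 of 22 passed (0% of 34945), with adjusted p of 0.902 to 0.997, and 1 of 22 had an unadjusted p under 0.05, with lower knockout values (2.41% of all probe sets, and 2.27% with higher ones). The median difference over the 9 members was -0.55, against 0.07 over all genes. It was 0.02 without knockout replicate 3 and 0.03 without knockout replicate 1, so the sign of the median rested on those arrays. Its size depended on the choice of probe set and the weights: the median was -0.09 when the probe sets of a gene were averaged, -0.26 with array weights and -0.19 over the 22 probe sets.

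**Figure D1:**
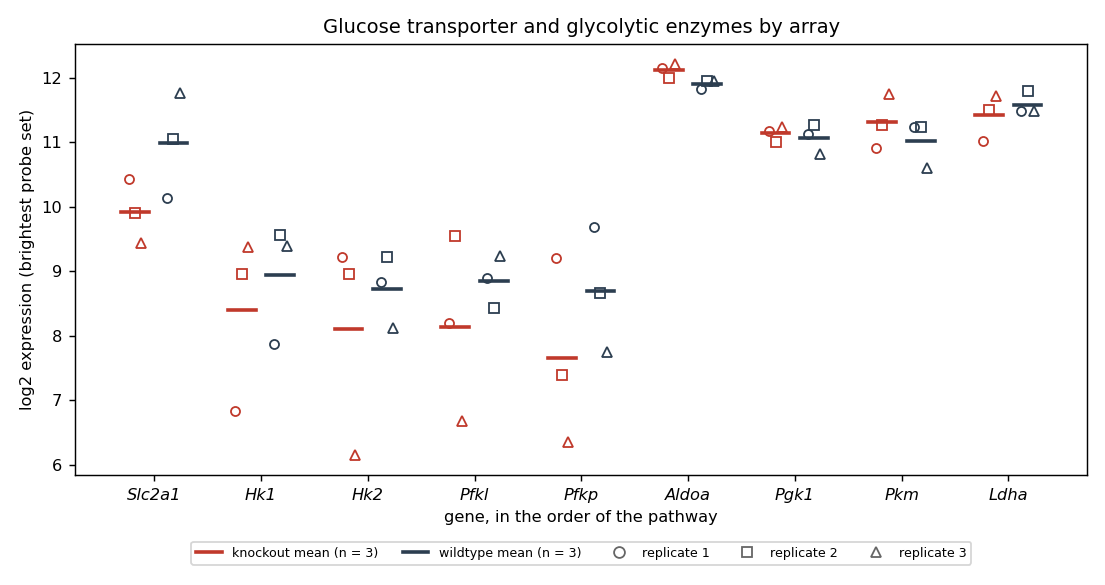
Log2 expression of the 9 measured genes in every array, from the brightest probe set of each gene, with knockout left of wildtype and a bar at each group mean (n = 3). Aldoa, Pgk1, Pkm and Ldha sit between 10.60 and 12.22 in every array, while Hk1, Hk2, Pfkl and Pfkp each have a knockout array under 7.

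Slc2a1 encodes GLUT1, a transporter that brings glucose into cells. Its brightest probe set (1426600_at) read 10.43, 9.91 and 9.44 in the knockout arrays, against 10.14, 11.05 and 11.76 in the wildtype arrays. The groups overlapped through knockout replicate 1, which read above wildtype replicate 1. The difference was -1.06 (SE 0.49, 95% interval -2.23 to 0.10, adjusted p = 0.887 in limma). All 3 Slc2a1 probe sets had a difference below 0. Probe set 1426599_a_at read 9.29, 8.59 and 10.65 in knockout, against 11.57, 10.44 and 11.45 in wildtype, a difference of -1.64 (SE 0.60, unadjusted p = 0.0305, adjusted p = 0.902 in limma), and was the 1 probe set of the 22 with an unadjusted p under 0.05. The dimmest, 1434773_a_at, differed by -0.53 (SE 0.63). Knockout replicate 3 was the lowest knockout array in the first probe set and the highest in the other 2. The mean of the 3 probe sets was 9.81, 9.07 and 10.22 in the knockout arrays, against 10.47, 10.41 and 11.45 in the wildtype arrays. On that mean every knockout array lay below every wildtype array, with a difference of -1.08 (SE 0.42, adjusted p = 0.898 in limma). Without wildtype replicate 3 the difference of the brightest probe set was -0.67.

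Hexokinase phosphorylates glucose on entry, and Hk1 and Hk2 are its forms that bind mitochondria. Hk1 read 6.84, 8.96 and 9.37 in the knockout arrays, against 7.87, 9.56 and 9.39 in the wildtype arrays. In both groups replicate 1 was the lowest, and the groups overlapped. The difference was -0.55 (SE 0.84, 95% interval -2.56 to 1.46) and was 0.23 without knockout replicate 1. The other Hk1 probe set (1437974_a_at) had knockout replicate 1 as its highest array, at 9.47, and a difference of 0.37 (SE 0.54). Hk2 has 1 probe set, which read 9.22, 8.96 and 6.14 in knockout, against 8.84, 9.22 and 8.11 in wildtype. A single array, knockout replicate 3, was low, and the other 5 lay between 8.11 and 9.22. The Hk2 difference was -0.62 (SE 0.91) over all arrays and 0.37 (SE 0.54) without knockout replicate 3.

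Phosphofructokinase catalyses the committed step, and Pfkl and Pfkp encode its liver and platelet subunits. The brightest Pfkl probe set (1450269_a_at) read 8.20, 9.55 and 6.67 in the knockout arrays, against 8.89, 8.43 and 9.23 in the wildtype arrays. Knockout replicate 2 was the highest of all 6 arrays and knockout replicate 3 the lowest. The difference was -0.71 (SE 0.79) and was 0.02 without knockout replicate 3. The other probe sets of Pfkl gave -0.02 (SE 0.61) and 1.18 (SE 0.52). The second value came from 1453541_at, the dimmest, which read 6.69, 5.83 and 7.42 in knockout, against 5.43, 5.56 and 5.41 in wildtype, with no overlap between the groups (adjusted p = 0.902 in limma). With the mean of its probe sets Pfkl differed by 0.15.

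Pfkp read 9.21, 7.39 and 6.36 in the knockout arrays, against 9.68, 8.66 and 7.74 in the wildtype arrays, in its brightest probe set (1416069_at). The groups overlapped, and knockout replicate 3 was the lowest array. The difference was -1.04 (SE 0.89, 95% interval -3.16 to 1.08, adjusted p = 0.887 in limma), and -0.39 without knockout replicate 3. The arrays fell in another order in the second probe set (1430634_a_at), which read 4.96, 7.47 and 7.93 in knockout, against 7.99, 7.89 and 8.51 in wildtype, a difference of -1.34 (SE 0.86). There knockout replicate 1 was the lowest array and knockout replicate 3 overlapped wildtype. The third probe set differed by -0.27 (SE 1.00). On the mean of the 3 probe sets the knockout arrays, at 6.39, 6.89 and 7.42, lay below the wildtype arrays, at 7.64, 7.68 and 8.04, with a difference of -0.88 (SE 0.44, adjusted p = 0.898 in limma).

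In their brightest probe sets the enzymes from aldolase to lactate dehydrogenase were bright and close between the groups. Their differences there lay between -0.17 and 0.28 and their standard errors between 0.13 and 0.31. The transporter, hexokinases and phosphofructokinases had standard errors of 0.49 to 0.91. Within-group SD over all genes also differed between these ranges of mean level. Its median was 0.36 over the 305 genes at the level of the first set and 0.76 over the 3071 genes at that of the second. Spread at other levels was not compared. The members' own median within-group SD, in the brightest probe sets, was 0.23 for the 4 enzymes and 1.17 for the 5 earlier genes. Over all their probe sets the differences ran from -0.43 (SE 0.56) to 0.24 for Aldoa and from 0.07 to 0.32 (SE 0.42) for Pgk1. Pkm and Ldha have 1 probe set each.

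Aldoa, the aldolase of muscle and blood cells, read 12.16, 12.00 and 12.22 in the knockout arrays, against 11.82, 11.95 and 11.95 in the wildtype arrays, in its brightest probe set (1439375_x_at). The 3 knockout arrays were each brighter than the 3 wildtype arrays, by a difference of 0.22 (SE 0.13, 95% interval -0.09 to 0.53, adjusted p = 0.887 in limma). Aldoa was the 1 member of 9 whose groups did not overlap in this direction, where 6.67% of all genes did, and 0 of 9 did in the other direction, where 4.25% did. The other 4 Aldoa probe sets had overlapping groups and differences of 0.24, -0.21, -0.43 and 0.05, and all 5 are of the _x_at type, which is open to cross-hybridisation. With the mean of the 5 the difference was -0.02.

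Pgk1, phosphoglycerate kinase, which makes the first ATP of the pathway, read 11.18, 11.00 and 11.24 in the knockout arrays, against 11.13, 11.27 and 10.81 in the wildtype arrays. The groups overlapped and differed by 0.07 (SE 0.22, 95% interval -0.45 to 0.59). Its other probe sets differed by 0.16 (SE 0.30) and 0.32 (SE 0.42). Wildtype replicate 3 was the lowest array in all 3 Pgk1 probe sets and knockout replicate 2 the second lowest. Without wildtype replicate 3 the difference was -0.06.

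Pkm, the pyruvate kinase of blood cells and muscle, read 10.91, 11.27 and 11.75 in the knockout arrays, against 11.24, 11.24 and 10.60 in the wildtype arrays. The lowest was a wildtype array and the highest knockout replicate 3, and the difference was 0.28 (SE 0.31, 95% interval -0.45 to 1.02). Pkm has 1 probe set, so its splice forms M1 and M2 were not told apart. Ldha, lactate dehydrogenase A, read 11.03, 11.50 and 11.73 in the knockout arrays, against 11.48, 11.79 and 11.48 in the wildtype arrays. Knockout replicate 1 was the lowest and wildtype replicate 2 the highest array, with a difference of -0.17 (SE 0.23, 95% interval -0.72 to 0.39). Gapdh could be read only through shared probe sets, of which the brightest, naming 5 genes, read 13.12, 13.39 and 13.24 in knockout, against 13.46, 13.38 and 13.28 in wildtype.

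**Figure D2:**
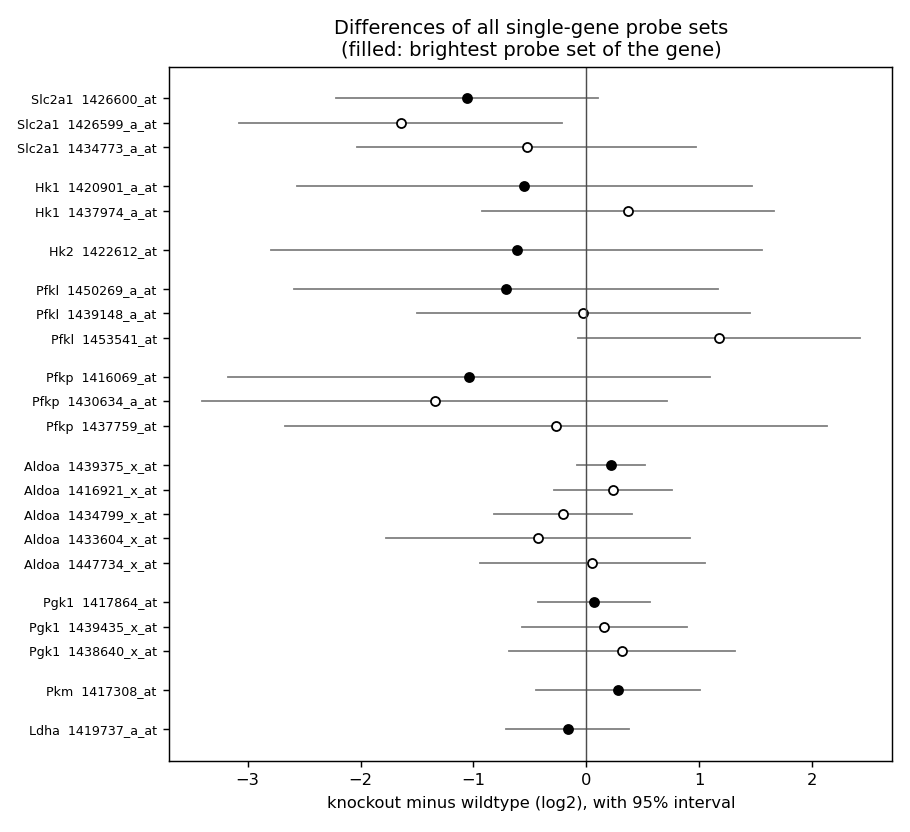
Knockout minus wildtype difference (log2, horizontal axis) of the 22 single-gene probe sets in the probe-set fit, with 95% intervals and the brightest probe set of each gene filled. The 3 Slc2a1 and 3 Pfkp probe sets all lie below 0, Pfkl runs from -0.71 to 1.18, and Pgk1 keeps within 0.07 to 0.32.

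Among the 6 genes with several probe sets, Hk1, Pfkl and Aldoa had differences on both sides of 0, Slc2a1 and Pfkp had all below 0 and Pgk1 had all above. Over the 22 probe sets 13 differences lay below 0 and 9 above, and the groups did not overlap for 2, both with higher knockout values (6.45% of all probe sets) and for 0 with lower ones (4.48%). Probe sets of 1 gene share its transcript and the arrays, so they are not separate replicates.

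In the brightest probe sets the knockout arrays differed among themselves more in the early genes than in the late ones. Relative to the wildtype mean of each gene, the median over Slc2a1, Hk1, Hk2, Pfkl and Pfkp was -0.56, 0.03 and -2.18 in knockout replicates 1, 2 and 3, against 0.04, 0.07 and 0.38 in the wildtype arrays. Over Aldoa, Pgk1, Pkm and Ldha it was 0.00, 0.01 and 0.24 in the knockout arrays, against -0.01, 0.20 and -0.18 in the wildtype arrays. In these brightest probe sets knockout replicate 3 lay below the wildtype mean in 4 of the 5 early genes, Hk1 being the exception, and above it in all 4 late ones. The low early median depended on the choice of probe set. With the probe sets of a gene averaged it was -0.54, 0.10 and -0.46 in knockout replicates 1, 2 and 3, against -0.15, -0.11 and 0.14 in the wildtype arrays, and knockout replicate 3 was the highest knockout array for Slc2a1 and Pfkp. The same array had the highest mean level of the neutrophil list, 10.90, and the lowest of the stem cell list, 8.08, against 9.97 and 9.42 in the other knockout arrays and 9.05 to 9.53 in wildtype. The part of these lists in the members' values was not tested.

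**Figure D3:**
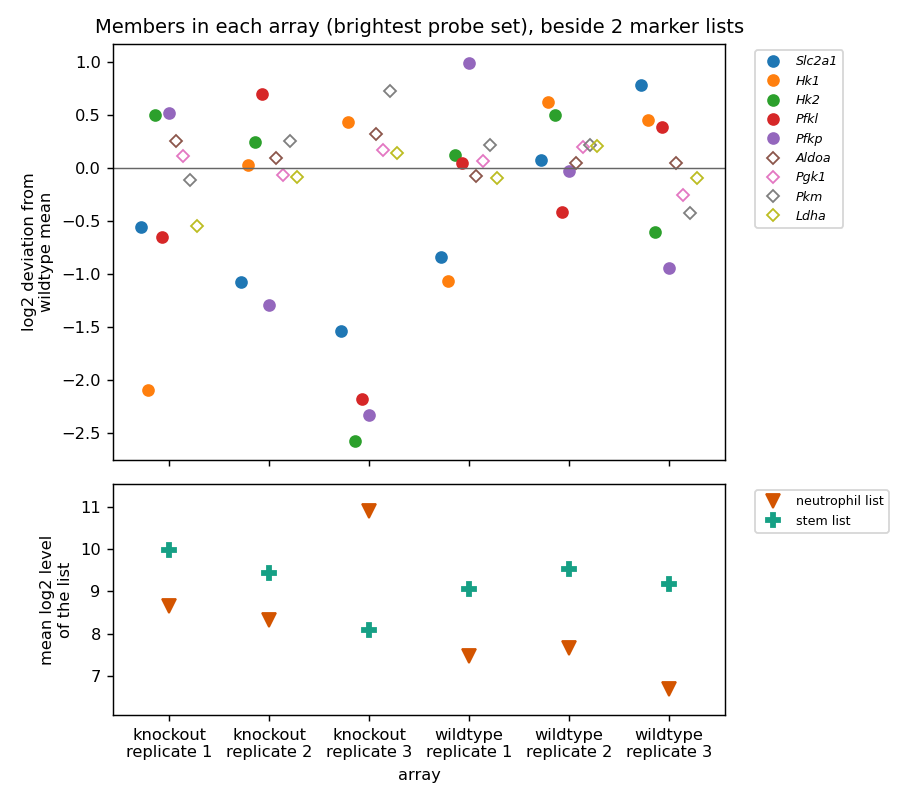
Upper panel: log2 deviation of each member (brightest probe set) from its wildtype mean in every array, with filled circles for the transporter, hexokinases and phosphofructokinases and open diamonds for the later enzymes. Lower panel: mean log2 level of the neutrophil and stem cell marker lists; knockout replicate 3 holds the lowest Hk2, Pfkl, Pfkp and Slc2a1 values in these probe sets, though not in the other probe sets of Slc2a1 and Pfkp or the dimmest of Pfkl, and the highest neutrophil level, 10.90.

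Marker lists of other blood cells, most of which a lineage-negative sort is meant to remove, overlapped between the groups in their mean level. The monocyte and macrophage list, 8 of 9 measured, had mean log2 levels of 5.22 to 6.02 in knockout and 5.25 to 6.39 in wildtype, with Lyz2 differing by 0.22 and Cd68 by 0.38. The erythroid list, 8 of 10 measured, had 5.16 to 6.22 in knockout and 5.94 to 6.73 in wildtype, with 5 genes below 0 and 3 above. Of its brightest genes, Tfrc differed by 0.78 without overlap (adjusted p = 0.887 in limma) and Gata1 by 0.61 with overlap. Klf1, named after its value was seen, differed by -2.21 without overlap (adjusted p = 0.887 in limma). The megakaryocyte list, 7 of 7 measured, had 7.61 to 8.15 in knockout and 7.57 to 8.89 in wildtype, with Pf4 at 0.16 and Gp1bb at 0.23. The B cell list, 6 of 7, had 4.68 to 5.32 and 5.11 to 5.40 in the same order, with Cd79b at -1.41 and Ebf1 at -0.12, and the T and NK list, 6 of 8, had 4.95 to 5.24 and 5.00 to 5.28, with Nkg7 at -0.37 and Cd4 at -0.12. Their part in the members' values was not tested.

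Mammals have several forms of most of these enzymes. For Slc2a3, Hk3, Pfkm, Aldoc, Ldhb and Pklr, 6 forms outside the set that were named after their values were seen, the groups overlapped. Most genes did so, since groups lacked overlap for 6.67% of all genes with higher and 4.25% with lower knockout values. The insulin-regulated transporter Slc2a4, given below, had no overlap. Slc2a3, the high-affinity transporter GLUT3, read 11.74, 11.14 and 11.40 in the knockout arrays, against 10.86, 12.22 and 9.39 in the wildtype arrays, a difference of 0.60 (SE 0.67). Its SD was 0.30 in knockout and 1.42 in wildtype, and its 4 probe sets ran from -0.705 to 1.213. Hk3, the hexokinase of myeloid cells, differed by 0.30 (SE 0.76), Pfkm, the muscle phosphofructokinase, by 0.86 (SE 0.86), and Aldoc, the brain aldolase, by 0.30 (SE 0.73). The other probe sets of Hk3 and Aldoc gave 1.77 and -0.02. Ldhb, the heart form of lactate dehydrogenase, read 12.12, 11.34 and 10.75 in knockout, against 11.64, 11.04 and 11.18 in wildtype, a difference of 0.12 (SE 0.37). Another Ldhb probe set gave -0.32. Pklr, the pyruvate kinase of liver and red cells, read 5.99, 5.75 and 6.23 in knockout, against 6.18, 8.66 and 9.08 in wildtype, a difference of -1.99 (SE 0.82, unadjusted p = 0.0468, adjusted p = 0.887 in limma), with another probe set at 0.23. Knockout replicate 3 read just above wildtype replicate 1, so the groups overlapped. Signals of different probe sets depend on their probes, so these values do not rank the forms within a cell. All 9 members lay above the median gene level of 5.81.

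Of 71 other genes of glucose metabolism, the hypoxia-inducible factor system and its targets, in 7 lists, 64 were measured and 0 passed in limma, where 0% of all genes did. Of the 64, 0 had an unadjusted p under 0.05 with higher knockout values (2.40% of all genes) and 3 with lower ones (2.44% of all genes). Groups did not overlap for 4 genes in each direction (6.25% and 6.25%, against 6.67% higher and 4.25% lower over all genes), and the median difference was -0.03. The other glycolytic enzymes, 10 of 14 measured, had a median of 0.21; besides Pklr, the muscle enolase Eno3 differed by -0.72 and the triose phosphate isomerase Tpi1 by 0.37, with another Tpi1 probe set at -0.77. The other transporters, 8 of 8, had a median of 0.22. Slc16a7, the monocarboxylate transporter MCT2, read 9.20, 8.29 and 6.45 in knockout, against 7.39, 5.30 and 4.05 in wildtype, a difference of 2.41 (SE 1.05, adjusted p = 0.887 in limma), with overlap between knockout replicate 3 and wildtype replicate 1. The insulin-regulated transporter Slc2a4 differed by 0.51 (SE 0.22) without overlap and read under the median gene level, with another probe set at 0.10. Slc2a8 differed by -0.41.

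The enzymes that set fructose 2,6-bisphosphate, the main activator of phosphofructokinase, or break down fructose 1,6-bisphosphate had a median of -0.26 over 6 of 7 genes. Pfkfb2 read 5.89, 6.97 and 4.84 in knockout, against 9.96, 6.08 and 9.52 in wildtype, a difference of -2.62 (SE 1.14), while its other probe sets reached 1.50. Pfkfb4 differed by 1.06 (SE 0.56). Tigar, a p53 target that lowers fructose 2,6-bisphosphate, read 4.83, 4.72 and 4.87 in knockout, against 5.58, 5.81 and 5.13 in wildtype, without overlap, a difference of -0.70 (SE 0.29, unadjusted p = 0.0455, adjusted p = 0.887 in limma); another probe set gave 0.95. The 6 measured pentose phosphate genes of 7 had a median of 0.00. Pgd, which makes NADPH in that pathway, read 11.59, 11.53 and 12.34 in knockout, against 10.61, 11.67 and 9.91 in wildtype, a difference of 1.09 (SE 0.47, adjusted p = 0.887 in limma), and its 4 probe sets ran from 0.74 to 1.11. Its groups overlapped through wildtype replicate 2. Rpe differed by 0.73 without overlap (another probe set at -0.40) and Tkt, transketolase, by -0.28.

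Pyruvate dehydrogenase, which feeds pyruvate to mitochondria, and its kinases and phosphatases had a median of -0.44 over 11 of 11 genes. Dld, its E3 subunit, read 5.13, 6.36 and 5.80 in knockout, against 8.78, 6.52 and 7.96 in wildtype, a difference of -1.99 (SE 0.70, unadjusted p = 0.0257, adjusted p = 0.887 in limma). Every knockout array lay below every wildtype array, and another Dld probe set gave 0.29. Pdhb, the E1 beta subunit, read 10.05, 9.74 and 9.91 in knockout, against 10.74, 10.20 and 10.94 in wildtype, also without overlap, a difference of -0.73 (SE 0.33), with another probe set at 0.17. Pdp1, a phosphatase that activates the complex, differed by -1.60 (SE 0.82).

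The hypoxia-inducible factor system, 11 of 11 genes, had a median of -0.02, with 5 differences above 0 and 6 below. This list also holds the transcription factors Meis1 (0.34), which is in the stem cell list too, and Myc (-0.42). Hif3a, an inhibitory family member in some of its forms, differed by 1.76 (SE 0.95), Arnt, the shared partner subunit, by 1.08 (SE 0.71) without overlap, and Egln2, an oxygen-sensing prolyl hydroxylase, by -0.93 (SE 0.53) without overlap. Probe sets of Arnt ran from -0.46 to 1.10 and those of Hif3a from -1.57 to 1.79. Other HIF target genes, 12 of 13 measured, had a median of -0.18. Bnip3, a mitophagy receptor, read 9.19, 7.68 and 8.55 in knockout, against 7.94, 6.11 and 6.75 in wildtype, a difference of 1.54 (SE 0.70). Adm, adrenomedullin, differed by -2.10 (SE 1.22) and the collagen prolyl hydroxylase P4ha1 by -1.63 (SE 1.01), with other probe sets at -0.01 and -0.05.

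**Figure D4:**
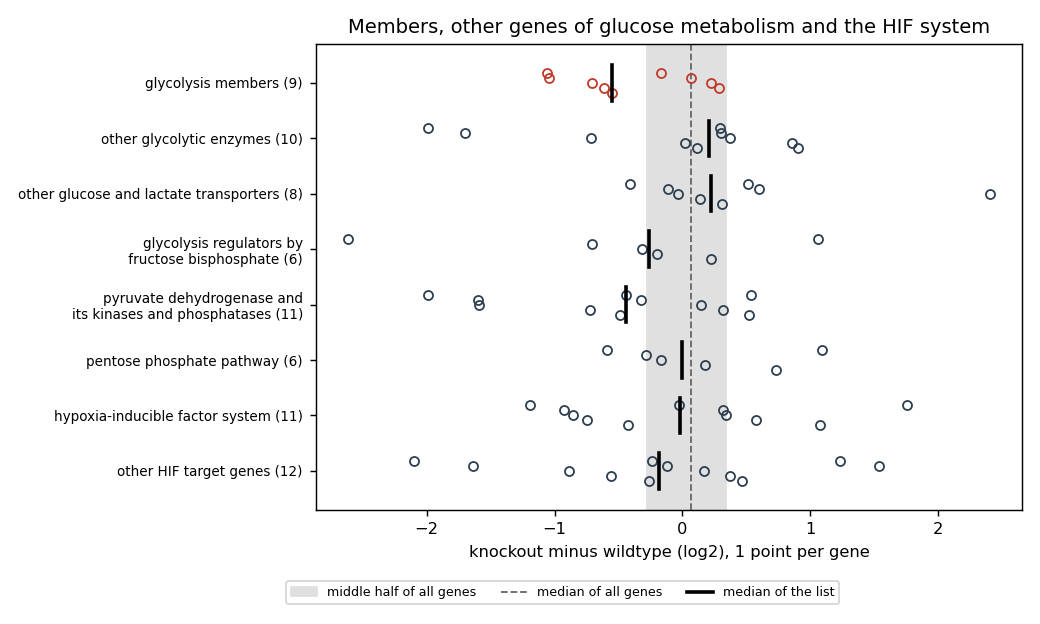
Knockout minus wildtype differences (log2) of the 9 members and of 7 lists of other genes of glucose metabolism and of the hypoxia-inducible factor system and its targets, 1 point per gene, with the number measured in brackets, a black bar at each list's median and a band over the middle 50% of all genes. The medians lie between -0.55 for the members and 0.22 for the other transporters, and 0 of the genes passed the adjusted threshold.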

How the data were processed

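RNA from sorted LT-HSC was amplified and put on Affymetrix mouse arrays, per the labels' protocols. The deposited values are log2 expression, 1 per probe set and array. The submitters' processing notes name RMA, Partek and Affymetrix Expression Console, with no version or setting. The background step of RMA makes differences of dim probe sets smaller.

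Of 45037 probe sets, 34945 named 1 gene in the platform annotation, and 34741 of these matched RefSeq by Entrez number. Each gene was read from its brightest probe set (highest mean of the 6 arrays), with no filter on level. Groups came from sample titles. The comparison of knockout with wildtype used limma 3.58.1 (R 4.3.3, lmFit, eBayes with a mean-variance trend), over 18193 genes and over 34945 probe sets, with Benjamini-Hochberg adjustment and a threshold of 0.05; the code was tested on simulated data. The p-values rest on 3 samples a group, whose spread may be partly technical. Members, lists and tests were chosen with earlier results of these data known. Named genes are the members, Irf8, the 3 of each pathway list with the smallest unadjusted p, the 2 brightest of each marker list, and exceptions given as such. Alternatives were other ways to combine probe sets, other moderation and scaling, a level filter, a replicate block and leaving out each array. Samples with the same replicate number did not deviate together (correlations of -0.02, -0.01 and -0.01 across genes), so the numbers were not taken as pairs. Promoter sequences are RefSeq's on GRCm38.p6. Tables and figures were made in Python 3.11.15 with numpy 2.4.6, pandas 2.3.3 and matplotlib 3.10.9. The number of arrays limits the precision.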

Additional observations from a re-analysis of the deposited data

How the results depend on the processing

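Under the 14 alternatives of the gene fit 0 of the 9 members passed the adjusted threshold, and under the 12 of the probe-set fit 0 of their 22 probe sets did. The smallest adjusted p of a member was 0.757. The level filter, eBayes without a trend and the replicate block cannot change a difference in this design. The choice of probe set cannot change that of Pkm, which has 1. Under the remaining alternatives Slc2a1, Pfkp and Pkm kept the sign of their difference. Their ranges were -1.48 to -0.67, -1.82 to -0.39 and 0.06 to 0.48 when 1 array was left out. Leaving out 1 array gave ranges that crossed 0 for Hk1 (-1.08 to 0.23), Hk2 (-1.17 to 0.37), Pfkl (-1.42 to 0.02), Pgk1 (-0.06 to 0.17) and Ldha (-0.32 to 0.03). The members' median ran from -0.83 without knockout replicate 2 to 0.03 without knockout replicate 1. The count of members without overlap ran from 1 to 4 of 9. It was 4, 2 and 3 without knockout replicate 1, knockout replicate 2 and wildtype replicate 1. Lower were Slc2a1 and Pfkp in the first case, Pfkl in the second, Slc2a1 and Hk1 in the third, and the rest were higher. Fewer arrays leave more genes without overlap (1988 over all arrays, 4042, 4387 and 3454 in the same order). The shares of all genes in that order were 13.1%, 16.1% and 10.9% with higher knockout values. With lower ones they were 9.16%, 7.99% and 8.07%. With the mean of a gene's probe sets the median was -0.09, Pfkl differed by 0.15 and Aldoa by -0.02, 2 members had no overlap (Slc2a1 and Pfkp, both lower, as were 4.4% of all genes), and 1 gene of the table passed. With the most variable probe set Aldoa differed by -0.43 and 0 members lacked overlap. With array weights the median was -0.26. With the replicate block, in which the replicate number entered the fit, Slc2a1 had an adjusted p of 0.889 in limma and 0 members were called. Centring and quantile normalization, which can change a difference, turned no sign of a member. Among the other named genes the sign turned with the mean of probe sets for Tpi1 (-0.13), Tigar (0.13) and Ldhb (-0.12), and with the most variable probe set for Tpi1 (-0.77), Tigar (0.95), Pdhb (0.17), Rpe (-0.40), Arnt (-0.46) and Ldhb (-0.32). Without 1 array the ranges crossed 0 for Hk3 (-0.33 to 0.65), Aldoc (-0.16 to 1.03), Ldhb (-0.24 to 0.44) and Slc2a3 (-0.12 to 1.30). The cause of these turns was not tested. The standard errors of 0.49 to 0.91 for the transporter, hexokinases and phosphofructokinases limit what 3 arrays a group could detect, so an adjusted p above the threshold does not show that their values did not differ.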
